A study of Homo sapiens with 12 samples.

Results

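The cytosolic ribosomal protein genes were examined in SW480 colon adenocarcinoma cells, an established human line, after the enzyme gene GPD1L had been lowered or raised. The family was taken by gene symbol: RPL or RPS followed by a number and at most 1 of the letters A, X or L, together with RPLP0, RPLP1, RPLP2, RPSA and FAU, without the p53-induced relative RPS27L, and with a mean of at least 1 FPKM in both tables. FPKM is a level per length: fragments divided by transcript length in kilobases and by the library's mapped fragments. This gave 78 genes, 46 for proteins of the large subunit and 32 for proteins of the small subunit, out of 13554 genes listed for the knockdown and 13583 listed for the overexpression. All 78 passed the filter on low values in both tables.

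The 12 poly(A) RNA-sequencing libraries formed 4 groups of 3. The shGPD1L group carried a short hairpin RNA against GPD1L and was compared with the hairpin group shNC as its control. The OE group overexpressed GPD1L and was compared with Vector, which carried the overexpression vector. All groups were SW480 cells, with no further treatment, time or clone given in the labels. Groups were taken from the titles, since the genotype field of shGPD1L and OE counts the gene name up with the replicate (GPD2L, GPD3L), which was taken for a slip. Each change of GPD1L was studied in 1 group against 1 control group. A further effect of the hairpin or the vector, or a difference between the cell populations, cannot be told apart from an effect of GPD1L. The GPD1L protein is a close relative of the cytosolic dehydrogenase that turns dihydroxyacetone phosphate into glycerol-3-phosphate.

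Ribosomal proteins coat the ribosomal RNA of the large and the small subunit, and they are made in matched amounts by highly transcribed genes that are spread over the genome. Their messenger RNAs belong to the terminal oligopyrimidine class: they begin with a C followed by an unbroken run of C and U, through which mTOR signalling and the protein LARP1 set their translation and stability. Unassembled RPL5 and RPL11 bind MDM2, the ligase that degrades p53, and fast-growing epithelial tumour cells keep ribosome production high, in part through MYC.

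The start sites are shown first because the pyrimidine run is the feature the family is best known for. The RefSeq promoter table (GRCh38.p14) held 63 of the 78 genes, each with 250 bases before and 50 after the annotated start. An unbroken run of C and T on the sense strand, opening with C, at least 5 bases long and beginning within 10 bases of the annotated start was found in 56 of the 63 genes (88.9%), against 33.3% of all 27305 promoters in the table. A run of at least 8 bases was found in 46 of the 63 (73.0%), against 9.08% of all promoters. In 43 genes (68.3%) the annotated start base was a C followed without a break by C and T to at least 5 bases in all, whatever lay before it, against 4.04% of all promoters. The hexamer TATAAA, searched on the sense strand between 40 and 16 bases before the start, was found in 2 genes (3.18%), against 2.54%. The lines below give 30 bases of the sense strand, 15 on each side of the annotated start, 5′ to 3′, with the longest run that begins within 10 bases of the start in capitals. The first 4 are the large subunit genes with the largest called decreases in the overexpression, RPL11 has such a run of only 5 bases, RPLP0 and RPS3 were not called there, and RPS28 and RPS12 lie near opposite ends of the knockdown.
RPL14 (chr3:40457324-40457353, plus strand): gggcgggtCTTCTTCCTTCTCgcctaacgc
RPL28 (chr19:55385917-55385946, plus strand): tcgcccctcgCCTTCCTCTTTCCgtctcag
RPL34 (chr4:108620561-108620590, plus strand): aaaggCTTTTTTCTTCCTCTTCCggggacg
RPL41 (chr12:56116618-56116647, plus strand): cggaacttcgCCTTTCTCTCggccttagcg
RPL11 (chr1:23691764-23691793, plus strand): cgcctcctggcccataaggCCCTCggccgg
RPLP0 (chr12:120201097-120201126, minus strand): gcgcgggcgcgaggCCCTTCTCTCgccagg
RPS3 (chr11:75399503-75399532, plus strand): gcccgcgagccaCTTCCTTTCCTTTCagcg
RPS28 (chr19:8321481-8321510, plus strand): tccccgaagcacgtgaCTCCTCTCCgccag
RPS12 (chr6:132814554-132814583, plus strand): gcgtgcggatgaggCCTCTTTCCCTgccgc
These runs were 10 to 18 bases in RPL14, RPL28, RPL34 and RPL41, which fell, and 10 and 14 bases in RPLP0 and RPS3, which were not called. A run is a match of letters, not a measured start site.

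GPD1L itself was measured at 8.68, 8.01 and 9.10 FPKM in shNC and at 1.55, 1.26 and 2.23 FPKM in shGPD1L, and at 10.7, 10.2 and 11.1 FPKM in Vector and 22.3, 22.8 and 22.1 FPKM in OE, in the direction of the labels in every library. The exact permutation test gave p = 0.1 in both comparisons, the smallest that 3 against 3 libraries allow. Of the epithelial markers fixed for the check of the cell type, 8 of 9 were listed in the knockdown table and 9 of 9 in the overexpression table. Their summed level was 5150 to 5520 FPKM in shNC, 4340 to 4560 in shGPD1L, 3840 to 4000 in Vector and 4230 to 4360 in OE. Fibroblast markers were nearly absent, with 2 of 6 listed (COL1A1 and PDGFRB) and sums of 1.15 to 1.63 FPKM in the knockdown table, 2.06 to 2.31 in Vector and 1.19 to 1.37 in OE. Of 8 immune markers 1 was listed, CD68, at 15.3 to 29.3 FPKM, with PTPRC and the T and B cell markers not listed, and of 4 endothelial markers 0 were listed. The number of reads behind the values is unknown. Where p-values are given, they measure the spread between 3 libraries of a group, which may be technical, since the labels do not say that libraries came from separate cultures.

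The 78 genes lie on 21 chromosomes and are short, with a median coding length of 454.5 bases, from 75 for RPL41 to 1281 for RPL4, against a median of 1392 over all listed annotated genes. Processed copies are numerous: GENCODE 29 names 1134 pseudogenes after members, none of them listed in the tables, with 91 for RPL23A, 74 for RPSA, 66 for RPL21 and 61 for RPL7, and RPL28 as the 1 member without any. How reads that fit a gene and its copies were assigned is not given, so levels of members with many copies are uncertain. FAU, RPL17, RPL36, RPL36A, RPS10, RPS13 and RPS15A, 7 members in all, overlap a listed gene on the same strand, and 26 overlap a listed gene on the other strand. Strand was not stated to have been kept, so reads of these pairs may not have been separated.

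Over the 12 libraries, levels per length in FPKM ran from a mean of 33.5 for RPL37 to 2893 for RPS2, an 86.5-fold range within a family whose proteins are needed in matched amounts. RPS2, at the messenger RNA entry side of the small subunit, was followed by RPLP0, the base of the stalk that recruits translation factors, at 1642 FPKM. RPL3, next to the peptidyl transferase centre, had 1451, RPS18, in the head of the small subunit, 1351, and RPL7A 1339. At the other end, RPS29 had 49.7 FPKM, RPS28 79.7, RPS23 86.9 and RPL37A 101.9. Coding lengths were 291 bases in RPL37, 168 in RPS29, 207 in RPS28, 276 in RPL37A and 429 in RPS23, against a family median of 454.5. RPL41, the shortest at 75 bases, had 883.7 FPKM. A part of length or of pseudogene copies in these levels was not tested. In all, 40 members had a mean above 500 FPKM and 4 below 100.

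Together the 78 genes took 9.67%, 8.75% and 9.98% of the summed FPKM in the 3 shNC libraries and 9.97%, 11.3% and 9.10% in shGPD1L. Their share was 12.0%, 12.4% and 12.2% in Vector and 10.7%, 11.3% and 11.4% in OE. The 2 knockdown groups overlapped, with 9.47% ± 0.637 in shNC and 10.1% ± 1.08 in shGPD1L (SD, n = 3), whereas each OE library lay below each Vector library, with 12.2% ± 0.176 against 11.1% ± 0.382. With the mitochondrially encoded genes taken out of the sum, the shares were 14.6% ± 0.255 in Vector and 13.1% ± 0.315 in OE. The sum over members was 53460 FPKM in Vector and 47080 in OE, a fall of 6377 FPKM, while the sum over all listed genes fell by 15300 FPKM. In these bulk, relative values, less RNA per cell and fewer cells with a high level cannot be told apart. Levels also differed between the 2 control groups: 73 members had a higher mean in Vector than in shNC, with a median ratio of 1.27. Whether both tables were scaled together is not known, and that ratio may in part be one of scale.

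With GPD1L overexpressed, messenger RNAs of both ribosomal subunits were lower. Of the 78 genes, 45 fell and 0 rose (limma on log2(FPKM + 1), Benjamini-Hochberg adjusted p under 0.05 over all 12208 genes tested), where 22.4% of all genes tested were called, 12.2% higher and 10.3% lower. The decreases were small and shared: the median change of the members was -0.20 on the log2(FPKM + 1) scale, against 0.02 for all genes, and the median change of the group means was -13%. In 77 of 78 members the log2 change was below 0, against 45% of all genes, and in 72 all 3 OE libraries lay below the Vector mean. The OE and Vector libraries did not overlap, with OE lower, in 59 members, against 17.6% of all genes, and all 45 called members were among the 59. Before adjustment 66 members were lower at p under 0.05, against 16.5% of all genes, and 0 were higher, against 21.4%. The large subunit had 29 of 46 members called and the small subunit 16 of 32, with median changes of -0.20 in both.

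The size of the count depended on the scale. With all libraries set to equal totals 29 members fell, and with quantile normalization, which sets the distribution of every library equal, 16 fell. Without Vector replicate 2 the count was 21, and without OE replicate 1 it was 29, with 0 higher in each of these. The share of all genes called, in either direction, was 28% with equal totals and 21% with quantile normalization. It was 12.6% without Vector replicate 2 and 14.7% without OE replicate 1.

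**Figure D1:**
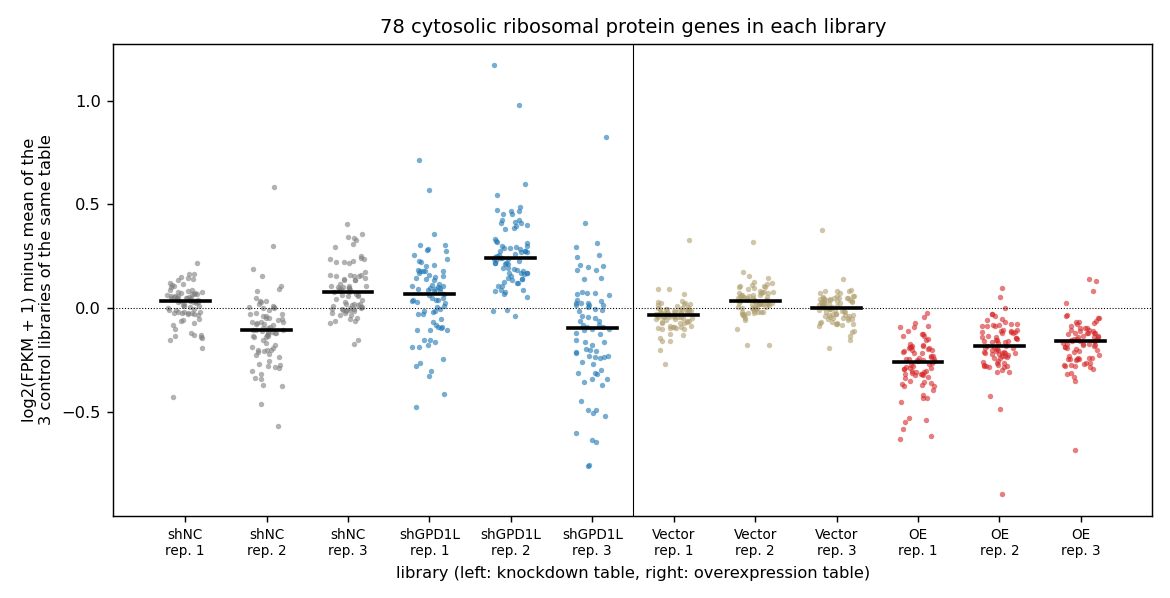
Each point is 1 of the 78 ribosomal protein genes in 1 library, as its log2(FPKM + 1) less the mean of the 3 control libraries of the same table (shNC on the left, Vector on the right), and the black bars are medians over the 78 genes. The medians of the 3 OE libraries lie at -0.26, -0.18 and -0.16, below all 3 Vector libraries, while the shGPD1L libraries lie at 0.07, 0.24 and -0.10 and straddle shNC.

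The plot of departures by library shows that the shift was present in each OE library and was largest in OE replicate 1. Several other measures were set beside it. The mitochondrially encoded share was 15.98%, 15.82% and 17.35% of summed FPKM in Vector and 16.04%, 14.95% and 14.16% in OE. These ranges overlapped, and within OE the share was highest in OE replicate 1, where the family was lowest. Of the 13 mitochondrially encoded genes 6 fell and 0 rose. The epithelial marker sum was higher in OE, through the keratins KRT8, KRT18 and KRT19, while CDH1, EPCAM, VIL1 and CDX2 were lower, each past the test. The part of these in the result was not tested.

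Within the large subunit, RPL14 had the lowest value. RPL14, a protein that bacterial ribosomes lack, was at 330.4, 332.9 and 271.4 FPKM in Vector and at 207.1, 166.2 and 246.4 in OE. The groups did not overlap, but OE replicate 3 and Vector replicate 3 came close. Its log2 change was -0.60 (SE 0.13, adjusted p = 0.0166 by limma), a fall of the mean by 33.7%, and the call was lost without Vector replicate 1 or without Vector replicate 2. RPL28, a protein of higher eukaryotes with no bacterial counterpart, was at 206.7, 210.9 and 241.9 FPKM in Vector and 149.9, 156.4 and 184.7 in OE. Each OE library was below each Vector library, and RPL28 fell by 0.43 (SE 0.087, adjusted p = 0.0114). RPL34, at 292.1, 290.2 and 275.1 FPKM in Vector, was at 213.4, 235.6 and 236.0 in OE. Its replicates lay close together in both groups, and it fell by 0.32 (SE 0.051, adjusted p = 0.00422).

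RPL41 encodes the smallest protein of the family, a basic peptide at the interface of the subunits. It was at 935.8, 977.7 and 1034 FPKM in Vector and 756.8, 832.2 and 770.6 in OE, again with no overlap, and fell by 0.32 (adjusted p = 0.00497). RPL38, RPL21, RPL23A, RPL36 and RPL22 fell by between 0.27 and 0.32, with the call of RPL38 lost without Vector replicate 2. RPL22, an RNA-binding protein with functions outside the ribosome, was among the most even: 144.7, 149.9 and 144.4 FPKM in Vector and 123.4, 121.6 and 119.4 in OE, a fall of 0.27 (SE 0.038, adjusted p = 0.00295). RPL9 and RPL35A had log2 changes as low as -0.42 and -0.36 without passing the test (adjusted p = 0.0735 and 0.115). In both, a single Vector library stood above the other two: RPL9 had 259.8 FPKM in Vector replicate 1 against 182.5 and 185.6, and RPL35A 363.1 in Vector replicate 3 against 243.1 and 246.9.

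**Figure D2:**
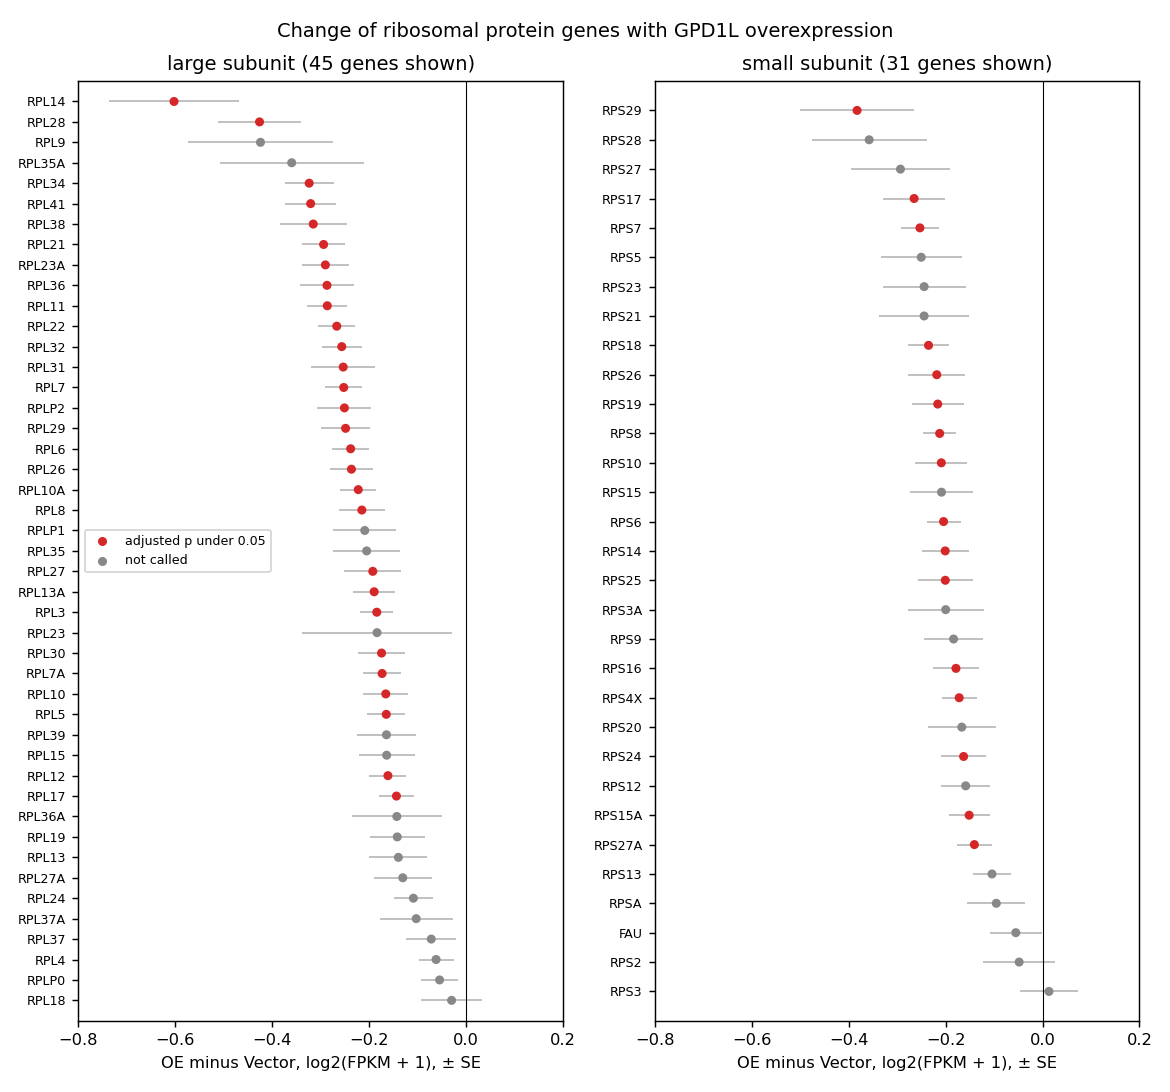
Points show the OE minus Vector change of 76 of the 78 genes on the log2(FPKM + 1) scale, with bars of 1 SE from limma, for the large subunit (left, 45 genes) and the small subunit (right, 31 genes), and red points have an adjusted p under 0.05. All points except that of RPS3 lie below 0, from -0.60 for RPL14 to 0.01 for RPS3, and 28 large and 16 small subunit genes shown are called.

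The proteins of the stalk, through which translation factors act, did not all give the same values. RPLP2, a component of the stalk, fell by 0.25 (adjusted p = 0.0161), from 431.2, 495.3 and 458.0 FPKM to 371.2, 397.1 and 393.2. RPLP1, the partner of RPLP2, was at 597.1, 646.1 and 551.5 FPKM in Vector and 501.5, 496.8 and 552.9 in OE, where the highest OE library just passed the lowest Vector library. Its log2 change was -0.21 with an adjusted p of 0.0517. RPLP0, the base of the stalk, was at 1809, 1783 and 1878 FPKM in Vector and 1713, 1778 and 1776 in OE. Its change was -0.05 (SE 0.039, adjusted p = 0.340), although each OE library was below each Vector library.

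Of 4 large subunit proteins chosen by role as binders of MDM2, a list that is not complete, 3 were called. In the whole large subunit 29 of 46 members were called. RPL5 and RPL11, which reach the ribosome together with 5S ribosomal RNA, fell by 0.16 (adjusted p = 0.0211) and by 0.29 (SE 0.041, adjusted p = 0.00301). RPL11 was at 550.7, 589.7 and 561.5 FPKM in Vector and 457.8, 458.7 and 478.4 in OE, with a wide gap between the groups. RPL26, which also binds the p53 messenger RNA, fell by 0.24 (adjusted p = 0.00912). RPL23 had a change of -0.18 (SE 0.15, adjusted p = 0.422), with values of 129.0, 194.6 and 150.7 FPKM in Vector and 121.8, 128.1 and 165.1 in OE that overlapped. MDM2 itself rose from 8.31 to 12.4 FPKM (log2 change 0.52, adjusted p = 0.00128). In the knockdown MDM2 had -0.45 and was not called (adjusted p = 0.150 by limma). A link between MDM2 and the ribosomal protein genes was not tested. RPL10, which is placed late in subunit maturation, fell by 0.17 (adjusted p = 0.0364). RPL13A, known for a role in silencing inflammatory transcripts, fell by 0.19 (adjusted p = 0.0186). With quantile normalization the log2 change of RPL13A lay above 0, at 0.05 (adjusted p = 0.236). The calls of RPL5, RPL10 and RPL13A were kept in 11, 8 and 13 of the 18 alternatives. RPL10 lost its call without any 1 library other than OE replicate 3, RPL5 without replicate 2 or 3 of either group, and RPL13A without Vector replicate 1, Vector replicate 2 or OE replicate 2. RPL39, at the wall of the exit tunnel, had -0.16 (adjusted p = 0.0887).

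In the small subunit the lowest values belonged to RPS29, RPS28 and RPS27. RPS29, a small zinc-binding protein, was at 61.9, 70.2 and 60.8 FPKM in Vector and 41.4, 47.6 and 59.4 in OE. OE replicate 3 nearly reached Vector replicate 3, and RPS29 fell by 0.38 with an adjusted p of 0.0489, a call that was kept in 6 of 18 alternatives and lost without any 1 library other than OE replicate 3. RPS28 and RPS27 had -0.36 and -0.29 and did not pass (adjusted p = 0.0612 and 0.0711). RPS6, the phosphorylated target of the S6 kinases, showed little spread: 937.5, 957.5 and 978.3 FPKM in Vector and 831.7, 830.1 and 831.1 in OE. It fell by 0.20 (SE 0.035, adjusted p = 0.00601), and had -0.04 with quantile normalization, the 1 alternative in which it was not called. RPS14 and RPS19, whose loss causes anaemia in the 5q- syndrome and in Diamond-Blackfan anaemia, fell by 0.20 (adjusted p = 0.0218) and by 0.22 (adjusted p = 0.0244). RPS27A, made as a fusion with ubiquitin, fell by 0.14 (adjusted p = 0.0259), a call kept in 6 of 18 alternatives and lost without any 1 of the 6 libraries. RPS14 kept its call in 13 of 18 alternatives, losing it without Vector replicate 2, Vector replicate 3 or OE replicate 1, and RPS19 in 12, losing it without Vector replicate 1, Vector replicate 2, OE replicate 1 or OE replicate 3.

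Among members that were not called, RPS3 was the only one with a value above 0. RPS3, a protein of the messenger RNA entry tunnel with a role in DNA repair, was at 586.5, 544.0 and 548.0 FPKM in Vector and 532.5, 547.9 and 616.0 in OE. These ranges overlapped throughout (log2 change 0.01, SE 0.060, adjusted p = 0.892). RPS2, its neighbour in the tunnel, had -0.05 (adjusted p = 0.672), with 3027, 3024 and 2884 FPKM in Vector and 2612, 2806 and 3259 in OE. RPL18 had -0.03 (adjusted p = 0.763) and FAU, a fusion of a ubiquitin-like protein with RPS30, -0.06 (adjusted p = 0.494). RPSA, also known as the laminin receptor, had -0.10 (adjusted p = 0.280).

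Of the 45 genes called, 12 passed in each of the 18 alternatives run on the overexpression: RPL3, RPL11, RPL21, RPL22, RPL23A, RPL28, RPL32, RPL34, RPL36, RPL41, RPLP2 and RPS7. RPL3, RPL32 and RPS7 are named here after their values were seen. The share of all genes tested that passed in every alternative is not given here, so the count of 12 has no background beside it. 

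Coding length went with the direction of the change among other genes. Among genes outside the family with at least 50 FPKM, the 111 with a coding length under 400 bases had median departures from the Vector mean of -0.11, -0.05 and -0.07 in the 3 OE libraries. The 359 with at least 1500 bases had 0.06, 0.07 and 0.08, so shorter genes were lower in OE generally. Members of the same lengths lay lower: the 26 members under 400 bases had a median log2 change of -0.21, the 30 from 400 to under 600 bases -0.21, and the 22 of 600 bases or more -0.18. The numbers called were 13, 19 and 13. With a smooth trend on coding length removed from all genes, an alternative chosen after seeing the data, 31 members fell, 0 rose, and the median was -0.155. In that setting 22.6% of all genes tested were called in either direction. Across the 78 members the change correlated weakly with log coding length (Pearson r = 0.32, Spearman rho = 0.31) and with log mean FPKM (r = 0.31, rho = 0.25), over values that share the same 6 libraries.

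**Figure D3:**
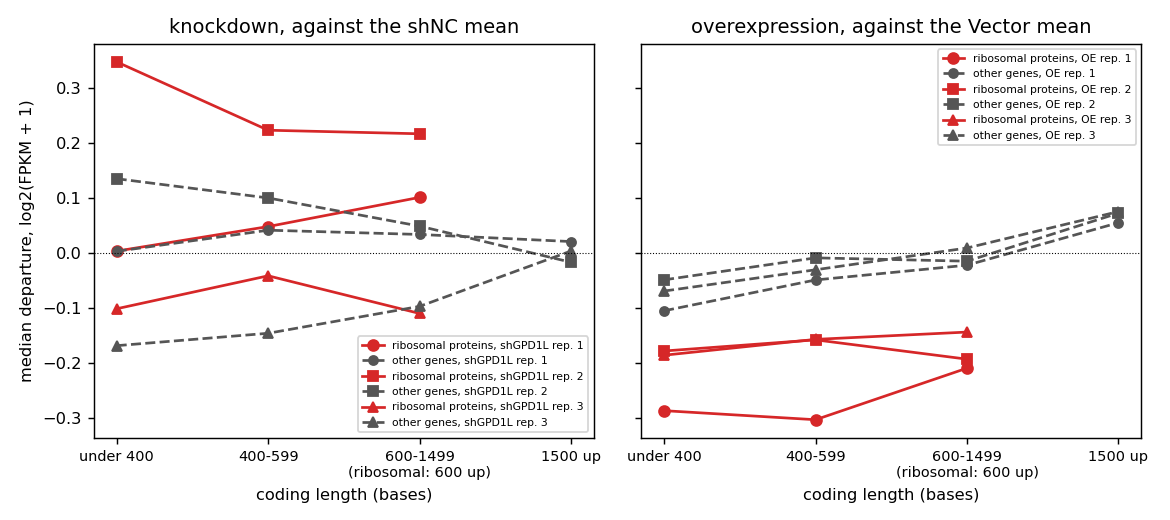
Median departure from the control mean, on the log2(FPKM + 1) scale, by coding length, for ribosomal protein genes (red, solid) and for other genes with at least 50 FPKM (grey, dashed), with 1 line for each shGPD1L library (left) and each OE library (right). On the right the red lines lie below the grey line of the same library in every bin that holds both, and on the left shGPD1L replicates 2 and 3 depart to opposite sides in both sets of genes in the bins under 1500 bases.

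The 63 members with a promoter were also split by the length of the run near the annotated start. In the overexpression the 46 genes with a run of at least 8 bases had a median log2 change of -0.21 with 24 called lower. The 17 with a shorter run or none had -0.19 with 12 called lower. Of all genes tested 10.3% were called lower. A part of the run in the changes was not tested. RPL11, with its 5-base run shown above, fell by 0.29, and RPS3, with 14 bases, had 0.01. In both genes, on the plus strand, the RefSeq start used for the run lies downstream of the GENCODE gene start. The positions are 23691779 against 23691742 for RPL11 and 75399518 against 75399486 for RPS3. Whether either run lies at the 5′ end of the messenger RNA in these cells was not tested.

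With GPD1L knocked down, no ribosomal protein gene was called. Of 78 members 0 rose and 0 fell (limma, adjusted p under 0.05), where 0.592% of all 12156 genes tested were called, 0.115% higher and 0.477% lower. At an unadjusted p under 0.05, 6 members were higher, against 6.04% of all genes, and 0 lower. Among the 6 were RPL28, RPL36A, RPL37A and RPS28. The median change was 0.07, against -0.04 for all genes, with 55 members above 0 and 23 below, where 58.4% of all genes were below. All shGPD1L libraries lay above all shNC libraries in 14 members and below them in 0, against 9.54% and 15.1% of all genes. The small and large subunit medians were 0.04 and 0.09.

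The knockdown libraries of 1 group differed more than the groups did. The median departure of the members from the shNC mean was 0.03, -0.11 and 0.08 in shNC and 0.07, 0.24 and -0.10 in shGPD1L. Without shGPD1L replicate 2 the median change was -0.01, and without shGPD1L replicate 3 it was 0.15. The mitochondrially encoded share moved the other way, at 19.51%, 21.97% and 18.82% in shNC and 19.05%, 16.34% and 21.44% in shGPD1L: it was highest in shNC replicate 2 and shGPD1L replicate 3, where the ribosomal protein genes were lowest. Its part in the spread was not tested.

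RPS28, a small protein of the messenger RNA exit side, had the smallest adjusted p in the family. It was at 70.5, 79.0 and 74.4 FPKM in shNC and at 92.2, 99.6 and 99.4 in shGPD1L, with no overlap and little spread. Its log2 change was 0.38 (SE 0.080, adjusted p = 0.0942). Without shGPD1L replicate 3 it was 0.36 with an adjusted p of 0.0371, and RPS28 was the 1 member called in that setting. There 5% of all genes tested were called, against 0.592% with all 6 libraries. RPL28 was at 178.2, 224.8 and 190.6 FPKM in shNC and 243.8, 241.5 and 350.0 in shGPD1L, a log2 change of 0.48 (SE 0.16, adjusted p = 0.214). Here shGPD1L replicate 3, low for most of the family, had the highest value. RPL36A, with values of 157.7, 196.0 and 175.3 against 261.2, 185.2 and 218.9 FPKM, had 0.32 (adjusted p = 0.305). RPL14 was scattered in both groups, at 131.3, 266.3 and 159.2 FPKM against 291.2, 350.0 and 142.2, and its 0.46 had an SE of 0.36.

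At the low end stood RPS12, RPLP1, RPS13 and RPS27A, with log2 changes of -0.31, -0.26, -0.23 and -0.21 and adjusted p from 0.622 to 0.742. RPS12, a protein of the small subunit's beak, was at 552.8, 361.9 and 618.2 FPKM in shNC and 358.0, 620.1 and 294.1 in shGPD1L. RPLP1 had 427.5, 256.6 and 504.8 against 286.5, 502.1 and 225.2. In both genes shNC replicate 2 was low within its group and shGPD1L replicate 2 was high within its group. RPS29, with 31.5, 32.7 and 45.6 FPKM in shNC and 35.4, 82.6 and 27.7 in shGPD1L, was also highest in shGPD1L replicate 2 and lowest in shGPD1L replicate 3.

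**Figure D4:**
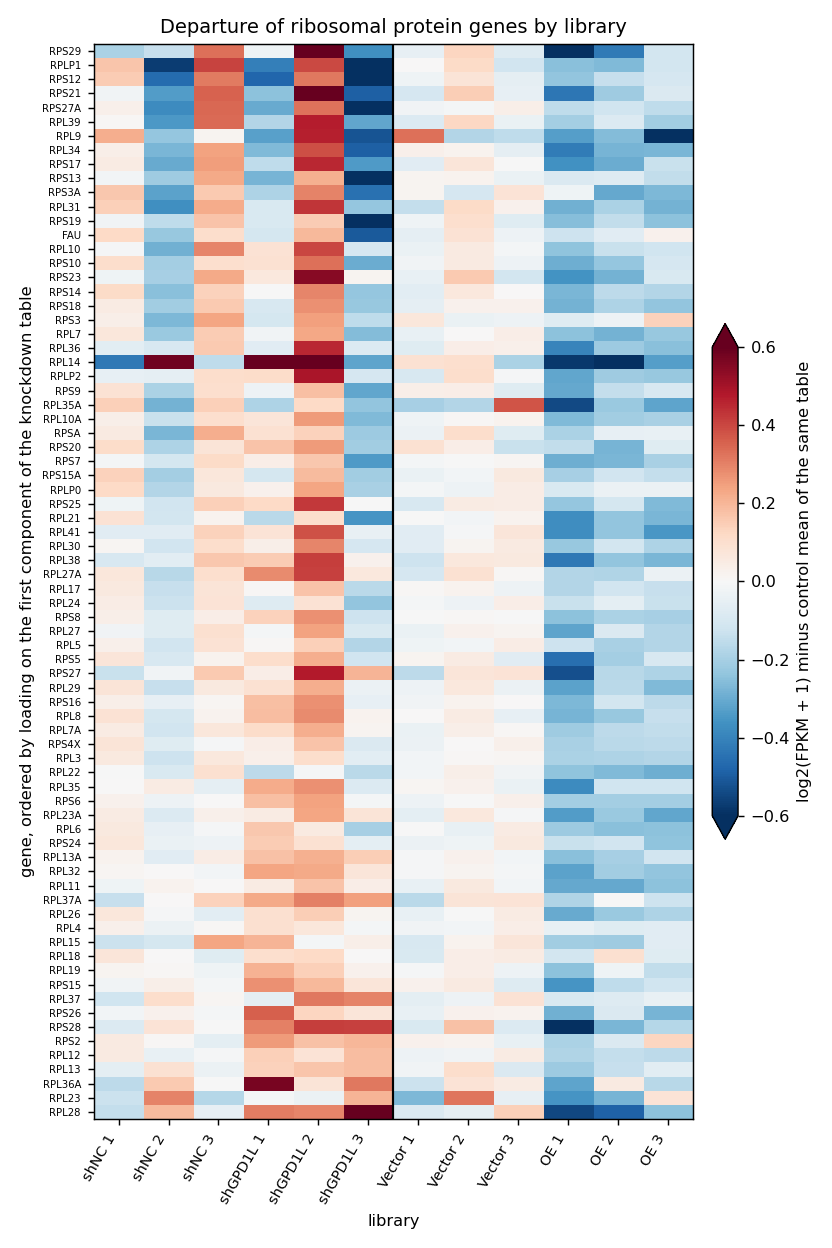
Colour gives the departure of 76 of the 78 genes (rows, ordered by loading on the first component of the knockdown table) in each library (columns, the 2 tables separated by the black line) from the control mean of its table, on the log2(FPKM + 1) scale and clipped at 0.6. In the upper rows shNC replicate 2 and shGPD1L replicate 3 are blue while shNC replicate 3 and shGPD1L replicate 2 are red, the lowest rows, RPL28 and RPL23, do not follow, and nearly all cells of the OE libraries are blue.

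The family varied together within groups. The first principal component of the members, after group means were removed, held 80.3% of the variance in the knockdown table and 52.2% in the overexpression table, with 70 and 69 members loading to the same side. The median correlation between pairs of members was 0.71 and 0.43 over the 6 libraries of each table, which share depth and composition. No such values for other sets of genes are given here. The shares and correlations therefore do not show that varying together was particular to the family. The scores of the knockdown table were 0.27, -1.44 and 1.17 in shNC and -0.42, 2.48 and -2.06 in shGPD1L, so shGPD1L replicates 2 and 3 formed the extremes. The within-group SD of a member had a median of 0.17 in the knockdown table and 0.08 in the overexpression table, against 0.14 and 0.09 for all genes, and 65 members were less variable in the latter. Relative to the family median of each library, RPL14 varied most (SD 0.45), followed by RPL23 (0.35), RPL28 (0.34) and RPS29 (0.32). RPS14, RPS18 and RPL7, at 0.04 to 0.05, followed the family median most closely.

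The 2 effects were then set against each other in 1 fit over the 12 libraries. The change in OE less the change in shGPD1L was called lower in 15 members and higher in 0, where 14.1% of 11208 genes tested were called, 9.14% higher and 5% lower, and its median over the members was -0.26, against 0.06 for all genes. RPL28 had a difference of -0.90 (SE 0.20, adjusted p = 0.0133), from 0.48 in the knockdown and -0.43 in the overexpression. RPS28 had -0.73 (SE 0.16, adjusted p = 0.0108), from 0.38 and -0.36, with neither of its single effects called. RPL32 had -0.44 with the smallest adjusted p (0.0075), RPL11 had -0.37 (adjusted p = 0.0130) and RPS6 -0.34 (adjusted p = 0.0350), a call lost without any 1 library other than shGPD1L replicate 3. RPL14, with -1.06, was not called (adjusted p = 0.125), and RPS12, RPS13 and FAU had values above 0, at 0.15, 0.13 and 0.08. The count was 9 without shNC replicate 2, shNC replicate 3, Vector replicate 3 or OE replicate 2, each left out in turn, 7 without OE replicate 1, 5 without Vector replicate 2, and 34 without shGPD1L replicate 3. The share of all genes called, in either direction, was 8.01% to 10.2% where the count was 9. It was 7.05% without OE replicate 1, 7.53% without Vector replicate 2 and 23% without shGPD1L replicate 3. RPL28, RPL32 and RPS28 passed in all 24 alternatives.

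Other genes of the ribosome's supply were counted from lists. Of 25 other messenger RNAs of the terminal oligopyrimidine class 21 were tested in the overexpression, where 3 rose and 4 fell with a median change of -0.06. Of all genes tested 12.2% rose and 10.3% fell, so these counts lie near the background. RACK1, a scaffold on the small subunit, fell from 1047 to 857.3 FPKM, by 0.29 (adjusted p = 0.00647). EIF4A2, a helicase of translation initiation, rose from 290.9 to 376.5 FPKM (log2 change 0.37, adjusted p = 0.00101), and NPM1, a nucleolar chaperone, from 538.2 to 618.6 (0.20, adjusted p = 0.00671). NAP1L1 fell by 0.25 (adjusted p = 0.0488).

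Of 52 ribosome biogenesis factors tested in the overexpression, 15 rose and 1 fell, where 12.2% and 10.3% of all genes did, with a median of 0.10 against 0.02 for all genes. GNL2 and NMD3, which act in maturation and export of the large subunit, rose by 0.36 (adjusted p = 0.00548) and 0.34 (adjusted p = 0.00336). FBL, the methyltransferase of ribosomal RNA, fell from 112.1 to 94.6 FPKM, by 0.24 (adjusted p = 0.00712). Of 16 regulators, 2 rose and 4 fell. MYC, which drives transcription of ribosome genes, fell from 78.9 to 60.8 FPKM, by 0.38 (adjusted p = 0.0114), and RPS6KA1 fell by 0.26 (adjusted p = 0.0185). LARP1 rose by 0.15 (adjusted p = 0.0458), and MTOR, EIF4EBP1 and RPS6KB1 had 0.13, 0.12 and 0.15 with adjusted p from 0.0966 to 0.215. In the knockdown 0 genes of these 3 lists were called. At an unadjusted p under 0.05, 2 other oligopyrimidine messenger RNAs were higher and 0 lower, 0 biogenesis factors were higher and 7 lower, and 1 regulator was higher and 1 lower, against 6.04% of all genes higher and 10.3% lower. Values below 0 were found for 42 of the 52 biogenesis factors, against 58.4% of all genes, with a median of -0.13 against -0.04.

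Of 6 relatives that the symbol rule left out, 0 were called in either comparison. At an unadjusted p under 0.05, 2 were lower in the knockdown with 0 higher, and 2 were lower and 1 higher in the overexpression. RPS27L, induced by p53, had -0.45 in the knockdown (adjusted p = 0.0874) and 0.17 in the overexpression (adjusted p = 0.126). The difference of its effects was 0.63 (adjusted p = 0.00734), to the other side of the called family members, and that of RPL7L1 was 0.61 (adjusted p = 0.00776). RPL22L1, RPL26L1 and RPL36AL had overexpression values of -0.13, 0.04 and -0.12 and none was called in that comparison.

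Lists of other abundant machinery were counted in the overexpression, beside 12.2% of all genes higher and 10.3% lower. Of 78 mitochondrial ribosomal protein genes 14 rose and 5 fell (median 0.04), of 76 nuclear genes of oxidative phosphorylation 0 rose and 5 fell (median -0.06), of 37 proteasome genes 11 rose and 3 fell (median 0.10), and of 7 chaperones of ribosomal proteins 0 rose and 1 fell (median 0.04). The 13 mitochondrially encoded genes came nearest to the family: all 13 had a value below 0, 0 rose, 6 fell, and the median was -0.19, against -0.20 for the members. In the knockdown 0 genes of these lists were called. At an unadjusted p under 0.05, 1 mitochondrial ribosomal protein gene was higher and 8 lower. With 0 higher, 3 nuclear genes of oxidative phosphorylation, 2 of the proteasome, 1 chaperone and 1 mitochondrially encoded gene were lower. These counts stand beside 6.04% of all genes higher and 10.3% lower.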

How the data were processed

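Poly(A) RNA was measured in 12 libraries, 3 per group, grouped by title. The authors deposited 2 tables of FPKM, 1 per comparison. HISAT2, StringTie, DESeq2 and GRCh38 are named, without versions or roles, in the submitters' processing notes; the handling of reads with several matches is not given in the sources used here. Depth is unknown, so errors are SDs and SEs between libraries.

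A table's genes averaging 1 FPKM or more over its 6 libraries were tested on log2(FPKM + 1) with limma 3.58.1 (R 4.3.3), eBayes with trend and Benjamini-Hochberg adjustment over all genes tested, and called under 0.05. Fold changes on this scale understate changes of low genes. For the difference of effects, all 12 libraries entered 1 fit with a mean for each group. GPD1L was also given an exact permutation test, two-sided. Coding lengths, pseudogenes and overlaps came from GENCODE 29, promoters from RefSeq (GRCh38.p14). Python 3.11.15 and matplotlib 3.10.9 drew the figures. The fits were also run on simulated data with noise drawn separately for each gene. Such data lack the shift that members share within a library, and no result here rests on that run.

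The members, lists and alternatives were chosen with earlier results of these data known. Named members were, per comparison, up to 10 called each way and the 4 largest changes each way, the 5 highest and 5 lowest levels, the 4 most and 3 least variable, and a list by role; of other lists up to 2 called genes each way. A few called members with smaller values were summarised by count. The alternatives changed the pseudocount (0.1, 0.5), the filter (none, or 5 FPKM), the scaling (equal totals over all or over other genes, median-of-ratios, quantile) or the fit (eBayes without trend or robust, a replicate block), or left out each library. Some genes that the naming rule covers are not reported by name; they remain in the counts and medians.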

Additional observations from a re-analysis of the deposited data

Results flagged for a closer look

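For 15 of the 78 ribosomal protein genes the effect of overexpression differed from that of the knockdown by the test of the difference itself (limma over 12 libraries, adjusted p under 0.05, values on the log2(FPKM + 1) scale), each lower in OE relative to its control than in shGPD1L. Of all 11208 genes tested 14.1% were called, 9.14% higher and 5% lower. Of the 15, 13 are reported here, with differences of -0.90 for RPL28, -0.73 for RPS28, -0.51 for RPL38, -0.44 for RPL32, -0.41 for RPL23A, -0.40 for RPS26, -0.39 for RPS15, -0.38 for RPL8, -0.37 for RPL11, -0.37 for RPL13A, -0.34 for RPS6, -0.32 for RPL26 and -0.30 for RPL12. None of the 15 was called in the knockdown alone. Of the 24 alternatives, RPL28, RPL32 and RPS28 kept the call in 24, RPL11 in 22, RPL23A and RPL13A in 21, RPS15 in 14, RPL38 in 13, RPL12, RPL26 and RPS26 in 12, RPS6 in 11 and RPL8 in 8. RPL13A had -0.02 with quantile normalization.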

How the results depend on the processing

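The count of 45 ribosomal protein genes lower in OE became 29 with equal totals, 16 with quantile normalization and 25 with eBayes without trend. It was 21 to 41 when single libraries were left out. The shares of all genes called in either direction were 28%, 21%, 20.2% and 12.6% to 16.2% in these settings, against 22.4% in the main fit. In any of the 18 alternatives 0 members were higher, and 67 members had a value below 0 in all of them. Their median change of -0.20 became -0.15 with equal totals, -0.0921 with quantile normalization and -0.155 with the coding-length trend removed, and the all-gene median moved to at most 0.07 with equal totals. RPL13A changed sign with quantile normalization (0.0536). The share difference between OE and Vector of -1.07 percentage points became -0.478 with quantile normalization. The small against large subunit difference in OE ranged from -0.00477 to 0.0319 over left-out libraries. The knockdown count of 0 ranged from 0 to 1 over left-out libraries, where 0% to 5% of all genes tested were called. The count of 15 differences of effects became 24 with median-of-ratios scaling, 5 with quantile normalization and 5 to 34 over left-out libraries. In these settings 12.4%, 11.9% and 7.05% to 23% of all genes tested were called in either direction. The median difference became -0.0946 with quantile normalization. The cause of these changes was not tested. Same-numbered libraries did not deviate together over all genes (correlations of -0.18 to 0.02, with 2 of 12 libraries closest to their own number), so the numbers were not taken as pairs. Over the members alone, the correlations for replicates 1, 2 and 3 were -0.0861, -0.58 and -0.525 in the knockdown. They were 0.438, -0.153 and -0.267 in the overexpression. With a replicate block the counts were 44 in the overexpression, 0 in the knockdown and 3 for the difference (RPL28, RPL32 and RPS28). The shares of all genes called with the block were 16.6%, 0.0247% and 4.31%. The depth is unknown, so counting error could not be given for any member.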

Other observations

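The genes outside the family whose within-group departures most resembled the family median over the 12 libraries, among 6002 genes with at least 10 FPKM, were SSR4 (Pearson r = 0.99), NAA20 (0.99), PSMB6 (0.98), UNC119B (0.98) and POLR1B (0.98). SSR4 is a subunit of the translocon-associated complex, NAA20 an N-terminal acetyltransferase, PSMB6 a proteasome subunit and POLR1B a subunit of RNA polymerase I. They are the top of a ranking over libraries that share depth and composition, and are given as a description.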
